A study of Homo sapiens with 6 samples.

Results

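The genes described here are MYC and 9 genes that control passage through G1: the cyclins CCND1, CCND3, CCNE1 and CCNE2, the kinases CDK4 and CDK6, the inhibitors CDKN1A and CDKN1B, and the transcription factor E2F1. They were taken by name from a table of 20333 gene intervals. All 10 had an interval, exceeded 10 counts in a library and passed the filter on low counts, with 276 to 11410 counts in a library. The assay was PRO-seq (precision run-on of nuclei followed by sequencing): engaged RNA polymerases extend labelled transcripts in permeabilised cells, and a gene's reads therefore report polymerase activity and not the amount of mature RNA or protein. T47D is an established line of luminal breast cancer cells, labelled estrogen receptor positive and HER2 negative, and was kept in growth factor-complete medium. Cells were treated for 5 h with the solvent DMSO, with 500 nM of the catalytic AKT inhibitor GDC0068, or with 100 nM of INY-05-040, an AKT degrader, which removes the protein instead of blocking its activity and carries the label Degrader. The 2 drug doses differ and had been chosen by the study for comparable suppression of downstream signalling. Each of the 3 arms had 2 libraries, numbered replicate 1 and 2, and the series describes 2 independent experiments.

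Cells leave G1 when cyclin D with CDK4 or CDK6, and then cyclin E with CDK2, phosphorylate the retinoblastoma protein and so release E2F factors, which switch on the genes of DNA replication. The CIP/KIP proteins p21 (CDKN1A) and p27 (CDKN1B) bind and restrain these kinases. MYC is a transcription factor that acts with MAX at E-box sequences and drives genes of ribosome production, nucleotide synthesis and growth. AKT signalling is known to bear on this step at several points: FOXO factors, which AKT holds out of the nucleus, activate CDKN1B, and AKT phosphorylates p21 and p27 proteins. In luminal breast cells CCND1 and MYC are also targets of the estrogen receptor.

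Total counts per library ranged from 25371819 to 32192576, and TMM scaling factors from 0.997 to 1.00. Counting error for the 10 genes was at most 6.02%, for CCNE1. This error covers counting only, and removal of duplicate reads is not stated. The 95% intervals of fold changes come from the edgeR fit and include the spread between libraries. All 10 luminal markers examined had reads, with summed levels of 5588 to 6000 CPM (counts scaled to a common library size) across the libraries. ESR1, PGR and GATA3 each exceeded 791 CPM in every library, whereas TFF1 had 4.08 to 5.84 CPM. These levels are not scaled to interval length. Of 12 markers of other cells, ZEB1 and CD68 had values, together 60.5 to 88.9 CPM, and the other 10 had no interval of their name. CD68, listed here as a leukocyte marker, was lower in the drug libraries. It had 83.6 and 77.2 CPM in DMSO, 62.6 and 67.6 under GDC0068, and 64.4 and 55.1 under Degrader. ZEB1 stayed between 5.23 and 5.99 CPM. Per kilobase of interval, CD68 had 18.6 to 28.2 CPM, ESR1 3.43 to 4.09, PGR 8.80 to 11.7 and GATA3 63.5 to 70.2. All samples were of the T47D line, and the source of the CD68 reads was not tested. No spike-in value was used, so every change is relative to the bulk of genes.

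Under Degrader, E2F1 and CCNE1 fell and CDKN1B rose, while under GDC0068 E2F1 fell. These are the calls of edgeR's quasi-likelihood test at an adjusted p under 0.05, where the Benjamini-Hochberg adjustment runs over 19902 genes. The 3 of 10 members called under Degrader compare with 15.3% of all genes tested, where 7.39% were called higher and 7.88% lower. The 1 of 10 called under GDC0068 compares with 3.58%, of which 1.70% were higher and 1.88% lower. Between the drugs edgeR called 0 of 10 (0.266% of all genes), as did DESeq2, with an unadjusted p under 0.05 for 2 of 10. The median log2 fold change of the 10 genes was -0.13 under Degrader and -0.06 under GDC0068, against -0.0014 and 0.01 over all genes tested. Both drugs are set against the same DMSO libraries, so these contrasts are not independent. With the replicate number as a block, edgeR called 7 of 10 under Degrader, 2 higher and 5 lower, against 30.7% of all genes (15.1% higher, 15.7% lower). It called 4 of 10 under GDC0068, 2 higher and 2 lower, against 17.8% (8.87% higher, 8.91% lower). Between the drugs it called 2 of 10, 1 in each direction, against 10.4% (5.03% higher, 5.35% lower). All calls made without the block were among them. The libraries of the compared arms did not overlap for 6 of 10 genes under GDC0068 (50.1% of all genes), 5 of 10 under Degrader (58.6%) and 3 of 10 between the drugs (45.0%), shares near the background. For E2F1, the GDC0068 call, the log2 fold change was -0.31 without DMSO replicate 1 and -0.34 without GDC0068 replicate 2. Its call was lost in both fits, which hold fewer libraries.

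**Figure D1:**
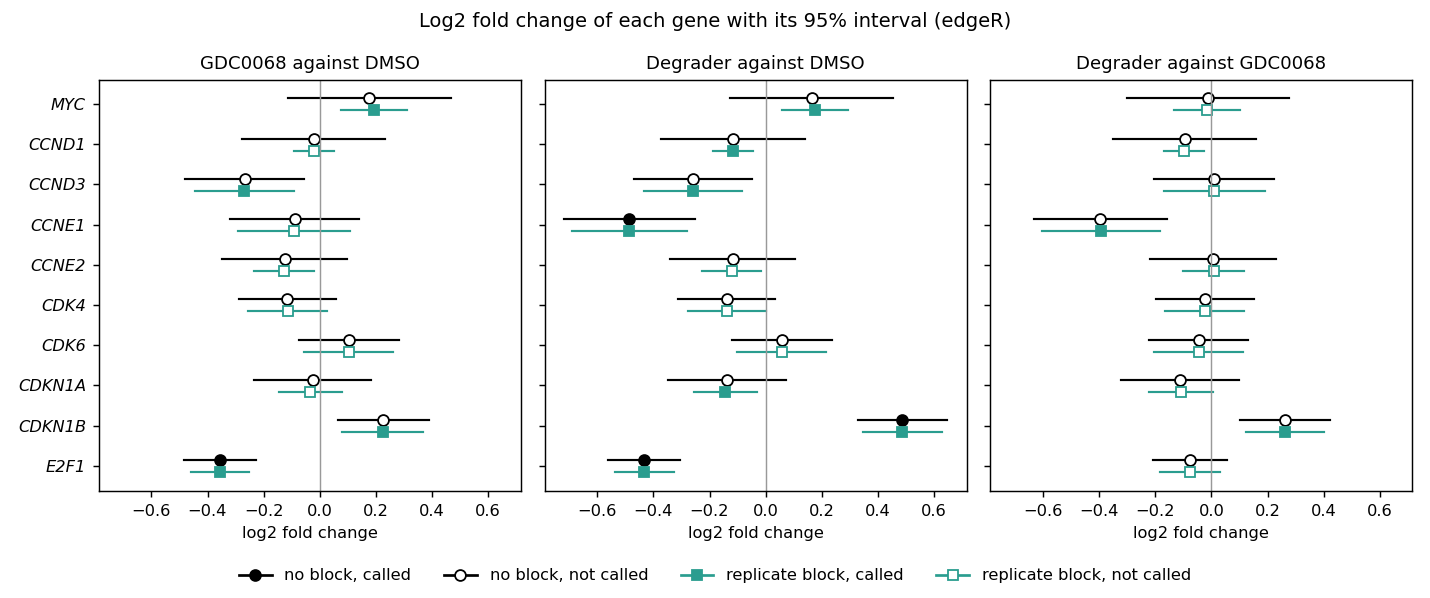
Log2 fold change (x axis) of each gene in the 3 comparisons with its 95% interval, from edgeR without a block (black circles) and with the replicate number as a block (green squares); filled symbols are called at an adjusted p under 0.05. E2F1 lies at -0.36 under GDC0068 and -0.43 under Degrader, CCNE1 at -0.49 and CDKN1B at 0.49 under Degrader, and the block narrows the intervals of MYC and CCND1.

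The 3 genes called under Degrader are shown by the 250 bases before their RefSeq start site (GRCh38.p14), so that the sequence can be read beside the values, with CDK4 added as the matched member that holds E-boxes. RefSeq promoters were matched for 7 of the 10 genes, by the start site nearest to that of the deposited interval. E2F1 lies at chr20:33686386-33686635 (minus strand), CCNE1 at chr19:29811741-29811990 (plus), CDKN1B at chr12:12717118-12717367 (plus) and CDK4 at chr12:57752311-57752560 (minus). Sequences run 5′ to 3′ and capitals mark a motif match.
E2F1: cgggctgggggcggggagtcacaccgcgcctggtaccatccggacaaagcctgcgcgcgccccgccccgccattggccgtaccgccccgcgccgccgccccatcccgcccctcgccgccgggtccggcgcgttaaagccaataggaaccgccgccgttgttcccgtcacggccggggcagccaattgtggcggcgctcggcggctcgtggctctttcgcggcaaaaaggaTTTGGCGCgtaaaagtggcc
CCNE1: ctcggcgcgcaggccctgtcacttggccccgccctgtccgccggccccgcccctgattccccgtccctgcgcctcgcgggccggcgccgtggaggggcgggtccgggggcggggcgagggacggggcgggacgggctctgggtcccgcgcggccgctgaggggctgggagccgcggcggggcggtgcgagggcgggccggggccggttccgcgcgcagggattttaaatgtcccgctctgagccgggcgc
CDKN1B: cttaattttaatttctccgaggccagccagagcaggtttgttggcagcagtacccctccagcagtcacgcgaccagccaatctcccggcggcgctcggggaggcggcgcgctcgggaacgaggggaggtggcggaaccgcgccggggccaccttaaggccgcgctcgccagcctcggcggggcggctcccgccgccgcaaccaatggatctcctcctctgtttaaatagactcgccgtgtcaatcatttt
CDK4: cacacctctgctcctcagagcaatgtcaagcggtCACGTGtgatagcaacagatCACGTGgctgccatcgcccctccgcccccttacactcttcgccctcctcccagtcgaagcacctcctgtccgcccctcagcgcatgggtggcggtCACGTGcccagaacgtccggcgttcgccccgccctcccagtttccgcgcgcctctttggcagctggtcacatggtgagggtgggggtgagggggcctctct
The motifs searched on both strands were the E2F forms TTTCGCGC, TTTGGCGC and TTTCCCGC, the E-box CACGTG, the FOXO form GTAAACA, the CRE TGACGTCA and TATAAA. E2F1 held TTTGGCGC from 20 bases before its start site, a form found in 0.55% of 35116 promoters of this length. CDK4 held CACGTG at 216, 196 and 101 bases before the start, where 6.34% of promoters hold at least 1. The other 5 matched promoters held none of these letters in this window. TTTCGCGC occurred in 0.439% of promoters, TTTCCCGC in 1.39%, GTAAACA in 2.98%, TGACGTCA in 1.65% and TATAAA in 10.7%. The GC content was 72.4% for E2F1, 81.2% for CCNE1, 64.4% for CDKN1B and 65.6% for CDK4, against a median of 58.0% over all promoters. A match is a description of the letters and not of a bound factor.

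Levels were compared between genes per kilobase of interval (CPM per kb). In DMSO MYC stood highest, at 27.2 ± 7.5 CPM per kb (SD, n = 2 here and throughout), followed by CCND1 at 24.2 ± 3.5, and the libraries of these 2 genes overlapped. CDK4 followed with 7.90 ± 0.39, CDKN1A with 6.04 ± 0.25, E2F1 with 5.48 ± 0.28 and CDKN1B with 4.90 ± 0.16 CPM per kb, each separated from the next. CCND3 at 3.55 ± 0.12 and CCNE2 at 3.39 ± 0.39 overlapped. CCNE1 at 1.17 ± 0.012 and CDK6 at 0.098 ± 0.00014 CPM per kb stood lowest, and CDK6 spreads its reads over an interval of 228144 bp. The order changed among the middle genes with treatment: CDKN1B stood below E2F1 in DMSO, above E2F1 under GDC0068, and above both E2F1 and CDKN1A under Degrader. Within families, CCND1 exceeded CCND3 by 5.99 to 8.95 times, CCNE2 exceeded CCNE1 by 2.51 to 3.87 times, and CDK4 exceeded CDK6 by 63.7 to 83.3 times across the 6 libraries. The intervals do not all span the gene: that of MYC begins 797 bp inside the RefSeq gene and covers 69.2% of it, that of CDKN1A 79.3% and that of CCND3 5.94%, whereas those of CCND1, CCNE1, CDK4, CDKN1B and E2F1 cover it whole. The CDKN1A interval begins at an annotated RefSeq start site and that of CCND3 35 bp downstream of one. The RefSeq genes of CDKN1A and CCND3 begin 2251 and 108262 bp upstream of these intervals. Each interval holds exons and introns together, and the part of it that was counted is not stated.

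**Figure D2:**
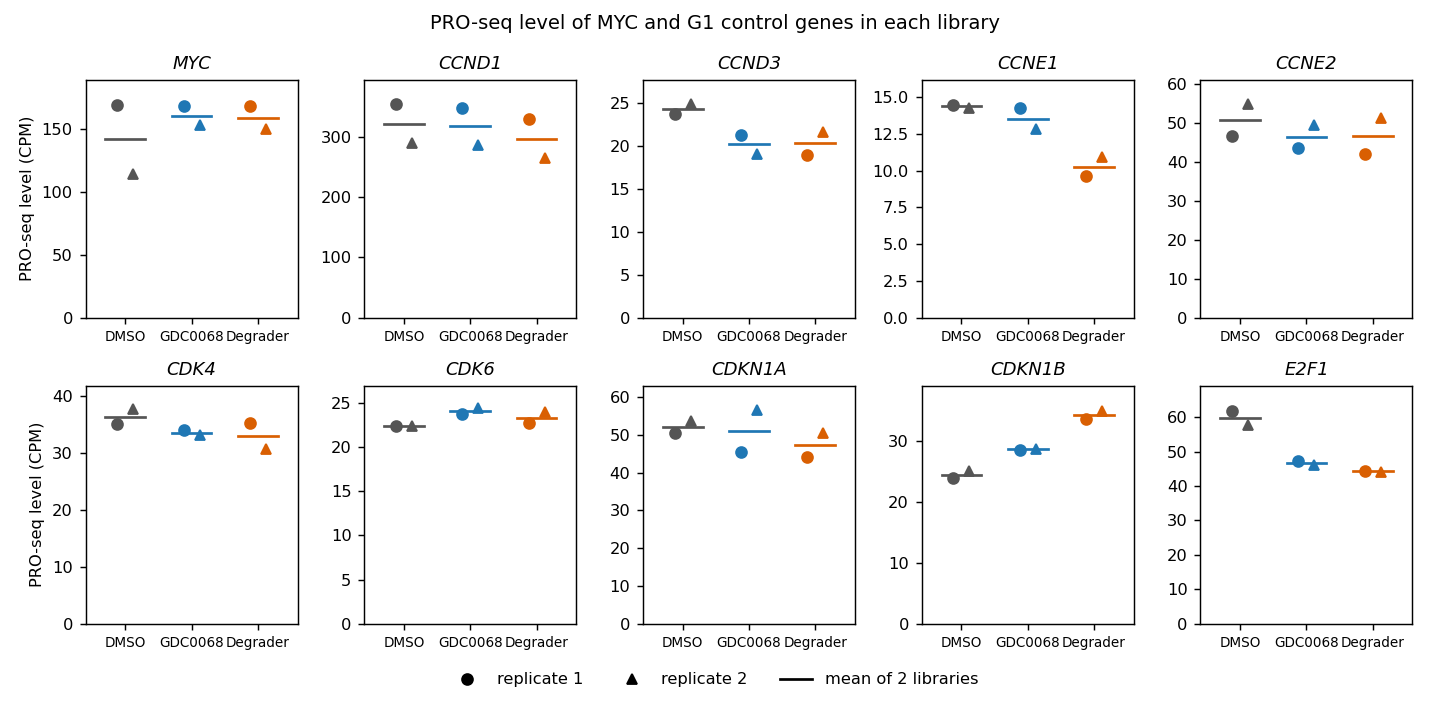
PRO-seq level in CPM (y axis, from 0, a scale per panel) of the 10 genes in each library, by arm; circles are replicate 1, triangles replicate 2 and bars the mean of 2 libraries. E2F1 lies at 57.6 and 61.9 CPM in DMSO and at 44.2 to 47.4 CPM under the drugs, CDKN1B rises from 24.0 and 25.1 to 33.7 and 35.0 CPM under Degrader, and the replicate 2 DMSO library of MYC lies alone at 114 CPM.

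MYC was not called under either drug, and its DMSO libraries differed by more than the arm means did. MYC (ENSG00000136997, chromosome 8, 127736231 to 127741434, plus strand; all intervals are given in hg38) had 169 and 114 CPM in DMSO replicates 1 and 2, 168 and 153 CPM under GDC0068, and 168 and 149 CPM under Degrader. The drug libraries therefore lie within the DMSO range, whose upper end is replicate 1. The DMSO gap between replicates was 0.57 on the log2 scale, larger than that of 99.9% of the 13897 genes with at least 10 CPM. The gaps under GDC0068 (0.13) and Degrader (0.17) exceeded those of 72.4% and 85.7% of genes. Against DMSO the log2 fold change of MYC was 0.18 under GDC0068 (95% interval -0.11 to 0.47, edgeR adjusted p = 0.498) and 0.16 under Degrader (-0.13 to 0.45, edgeR adjusted p = 0.451). Within replicate 1 the log2 ratio to DMSO was -0.01 under either drug, and within replicate 2 it was 0.42 under GDC0068 and 0.39 under Degrader. With the replicate block MYC was called higher, by 0.19 under GDC0068 (95% interval 0.08 to 0.31, edgeR adjusted p = 0.0191). Under Degrader the block gave 0.18 (0.06 to 0.29, edgeR adjusted p = 0.0199), also called. Both within-replicate ratios of each drug lie outside the block interval, so these calls do not reflect how far the 2 replicates disagree. Leaving out DMSO replicate 2 turned the changes to -0.08 and -0.09. Leaving out DMSO replicate 1 gave 0.49 under GDC0068 and 0.47 under Degrader, the latter called (edgeR adjusted p = 0.0113); over all alternatives the edgeR and DESeq2 adjusted p ranged from 0.0191 to 0.803 under GDC0068 and from 0.0113 to 0.816 under Degrader. Between the drugs the difference was -0.01 (-0.30 to 0.28).

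Of the neighbours of MYC, CASC11, a noncoding RNA gene on the opposite strand, overlaps it by 2748 bp. Its levels were 48.5 and 37.0 CPM for DMSO, 51.8 and 42.9 CPM with GDC0068 and 55.0 and 50.0 CPM with Degrader. Replicate 1 was the higher library in each arm. Use of strand is not stated, so reads of MYC and CASC11 cannot be told apart with certainty. PVT1, a long noncoding RNA gene 53106 bp away on the same strand, gave log2 fold changes of -0.05 under GDC0068 and -0.02 under Degrader (edgeR adjusted p of 0.734 and 0.855).

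CCND1, which encodes cyclin D1, also differed by replicate and was not called under either drug. It had 355 and 290 CPM in DMSO, 349 and 287 CPM under GDC0068, and 330 and 266 CPM under Degrader (ENSG00000110092, chromosome 11, 69641156 to 69654474, plus strand). The arms overlapped, and in each arm replicate 1 exceeded replicate 2, by 0.28 to 0.31 on the log2 scale, more than in 94.97% to 97.80% of genes with at least 10 CPM. The log2 fold change was -0.02 under GDC0068 (95% interval -0.28 to 0.23, edgeR adjusted p = 0.946) and -0.12 under Degrader (-0.37 to 0.14, edgeR adjusted p = 0.552). Within replicates the Degrader ratio was -0.11 and -0.13. The block called this fall (-0.12, 95% interval -0.19 to -0.05, edgeR adjusted p = 0.0109; over all alternatives 0.0109 to 0.943), which without Degrader replicate 2 was 0.02 and without DMSO replicate 1 was 0.03.

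CCND3, the gene of cyclin D3, was lower in every drug library than in either DMSO library. Its levels were 23.7 and 24.8 CPM in DMSO, 21.3 and 19.1 under GDC0068, and 18.9 and 21.6 under Degrader (ENSG00000112576, chromosome 6, 41934933 to 41941773, minus strand). The log2 fold change was -0.27 under GDC0068 (SE 0.097, edgeR adjusted p = 0.151) and -0.26 under Degrader (SE 0.097, edgeR adjusted p = 0.0939), neither called. With the block both were called, with edgeR adjusted p of 0.0286 and 0.0212 (ranges over all alternatives 0.0286 to 0.408 and 0.0212 to 0.418). Between the drugs the difference was 0.01 (95% interval -0.21 to 0.22).

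The kinase genes were not called in any comparison. CDK4 (ENSG00000135446, chromosome 12, 57747727 to 57752330, minus strand) had 35.1 and 37.7 CPM in DMSO, 34.1 and 33.1 under GDC0068, and 35.3 and 30.8 under Degrader. Its change was -0.12 under GDC0068 (95% interval -0.29 to 0.06) and -0.14 under Degrader (-0.31 to 0.03), with edgeR adjusted p of 0.453 and 0.270. TSPAN31 overlaps 2493 bp of the CDK4 interval on the opposite strand, at 15.6 to 18.2 CPM. CDK6 (ENSG00000105810, chromosome 7, 92604921 to 92833064, minus strand) had 22.4 CPM in both DMSO libraries, 23.8 and 24.4 CPM with GDC0068 and 22.7 and 23.9 CPM with Degrader. Although no drug library lay below DMSO, its changes of 0.10 (-0.07 to 0.28) and 0.06 (-0.12 to 0.24) were not called (edgeR adjusted p of 0.516 and 0.681). Neither kinase gene was called with the block.

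Of the E cyclins, which activate CDK2 late in G1, CCNE1 fell under Degrader and CCNE2 was not called. CCNE1 (ENSG00000105173, chromosome 19, 29811994 to 29824312, plus strand) had 14.5 and 14.3 CPM in DMSO, 14.2 and 12.8 CPM under GDC0068, and 9.61 and 10.9 CPM under Degrader. Both Degrader libraries lay below the other 4. CCNE1 fell by 28.6% under Degrader, a log2 fold change of -0.49 (SE 0.11, 95% interval -0.72 to -0.25, edgeR adjusted p = 0.0114), with log2 ratios of -0.59 and -0.39 within replicates 1 and 2. The call was lost without DMSO replicate 1 (edgeR adjusted p = 0.0773) and without Degrader replicate 1 (-0.40, edgeR adjusted p = 0.0860), within a range of 4.68e-04 to 0.0860 over all alternatives. Under GDC0068 the change was -0.09 (-0.32 to 0.14, edgeR adjusted p = 0.686). Degrader against GDC0068 gave -0.40 (95% interval -0.63 to -0.16, edgeR adjusted p = 0.147), which became a call once the block was fitted (-0.39, edgeR adjusted p = 0.0130; range over alternatives 0.0130 to 0.585).

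CCNE2 (ENSG00000175305, chromosome 8, 94880227 to 94895201, minus strand) had 46.6 and 54.8 CPM in DMSO, 43.4 and 49.4 CPM with GDC0068 and 42.1 and 51.3 CPM with Degrader. The arms overlapped and replicate 2 was the higher library in each, the reverse of MYC and CCND1. Its changes were -0.12 under GDC0068 (95% interval -0.35 to 0.10, edgeR adjusted p = 0.539) and -0.12 under Degrader (-0.34 to 0.10, edgeR adjusted p = 0.482). Between the drugs the difference was 0.01 (-0.22 to 0.23). The ratio of CCNE2 to CCNE1 per kb was 2.65 and 3.16 in DMSO, 2.51 and 3.17 under GDC0068, and 3.60 and 3.87 under Degrader, so both Degrader libraries lay above the rest. CCNE1 alone had both Degrader libraries below the rest. INTS8, on the opposite strand at 100 to 110 CPM, overlaps 1520 bp of the CCNE2 interval.

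Of the inhibitor genes, CDKN1B rose under Degrader and CDKN1A was not called. CDKN1B (ENSG00000111276, chromosome 12, 12717368 to 12722369, plus strand), which encodes p27, had 24.0 and 25.1 CPM in DMSO, 28.6 and 28.7 CPM under GDC0068, and 33.7 and 35.0 CPM under Degrader. The 3 arms did not overlap, with GDC0068 between DMSO and Degrader. CDKN1B rose by 40.2% under Degrader, a log2 fold change of 0.49 (SE 0.073, 95% interval 0.33 to 0.65, edgeR adjusted p = 0.00158), and the ratio was 0.49 in replicate 1 and 0.48 in replicate 2. This call held under every alternative run, with adjusted p from 3.38e-06 to 0.0274 (edgeR or DESeq2). Under GDC0068 the change was 0.23 (95% interval 0.06 to 0.39, edgeR adjusted p = 0.118), called with the block (edgeR adjusted p = 0.0254; range 0.0254 to 0.436). Degrader exceeded GDC0068 by 0.26 (0.10 to 0.42, edgeR adjusted p = 0.151), also called with the block (edgeR adjusted p = 0.0131; range 0.0131 to 0.532). AC008115.3 overlaps 1090 bp of CDKN1B on the same strand; it stood at 2.63 to 4.63 CPM and changed by 0.63 under Degrader (edgeR adjusted p = 0.0448).

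CDKN1A (ENSG00000124762, chromosome 6, 36678714 to 36687339, plus strand), which encodes p21 and is a classical target of p53, had 50.6 and 53.6 CPM in DMSO, 45.5 and 56.6 CPM with GDC0068 and 44.0 and 50.6 CPM with Degrader. The DMSO libraries lie within the GDC0068 range. Its change was -0.03 under GDC0068 (95% interval -0.23 to 0.18, edgeR adjusted p = 0.919) and -0.14 under Degrader (-0.35 to 0.07, edgeR adjusted p = 0.374), the latter called with the block (edgeR adjusted p = 0.0486; range 0.0486 to 0.859). The ratio of CDKN1A to CDKN1B per kb was 1.22 and 1.24 in DMSO, 0.92 and 1.1 under GDC0068, and 0.76 and 0.84 under Degrader, with no overlap between arms. CDKN1B alone also had no overlap between arms, whereas CDKN1A overlapped in each comparison.

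E2F1, an activator of S phase genes that also feeds back on its own promoter, fell under both drugs. E2F1 (ENSG00000101412, chromosome 20, 33675477 to 33686382, minus strand) had 61.9 and 57.6 CPM in DMSO, 47.4 and 46.1 CPM under GDC0068, and 44.5 and 44.2 CPM under Degrader. All 4 drug libraries lay below both DMSO libraries. E2F1 fell by 25.9% under Degrader, a log2 fold change of -0.43 (SE 0.059, 95% interval -0.56 to -0.30, edgeR adjusted p = 9.31e-04), and the call held under every alternative run (adjusted p from 1.78e-07 to 0.0159, edgeR or DESeq2). Under GDC0068 it fell by 21.9%, a log2 fold change of -0.36 (SE 0.059, -0.48 to -0.23, edgeR adjusted p = 0.0113). The GDC0068 call was lost without DMSO replicate 1 (-0.31, edgeR adjusted p = 0.111) and without GDC0068 replicate 2 (-0.34, edgeR adjusted p = 0.0702), within a range of 1.31e-05 to 0.111. Between the drugs the difference was -0.08 (95% interval -0.21 to 0.05, edgeR adjusted p = 0.594).

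**Figure D3:**
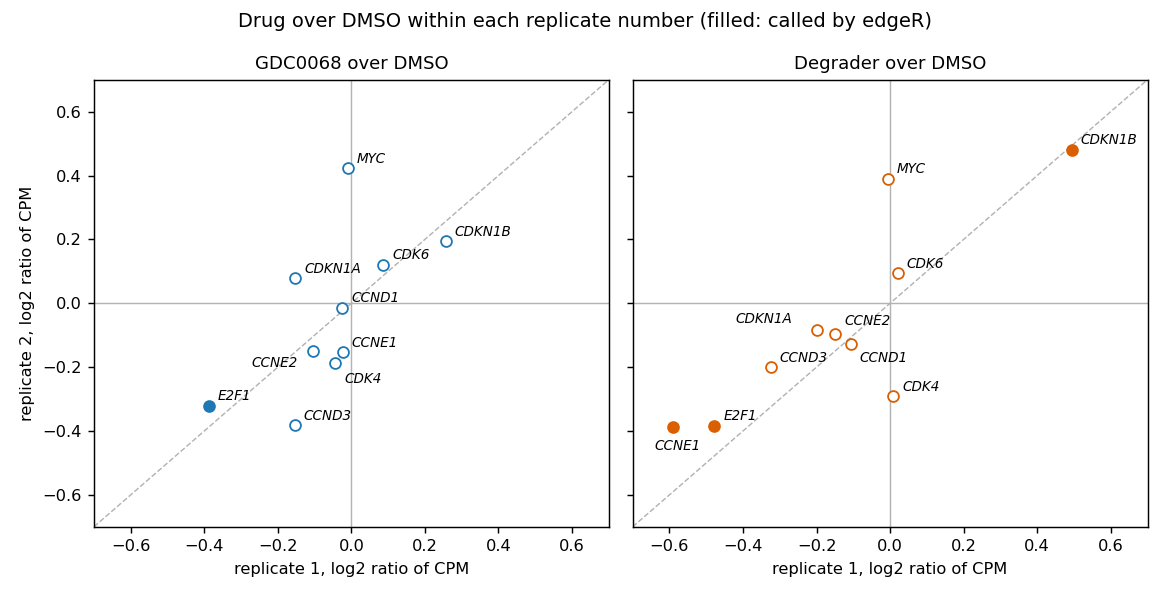
Log2 ratio of CPM, drug over DMSO, within replicate 1 (x axis) and within replicate 2 (y axis) for each gene, GDC0068 left and Degrader right; filled points are called by edgeR without the block and the dashed line marks equal ratios. CDKN1B and E2F1 lie near the line, whereas MYC has -0.01 in replicate 1 and about 0.4 in replicate 2.

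The other regulators of G1 and S entry changed in both directions. Of 26 tested, edgeR called 10 under Degrader, 4 higher and 6 lower, against 15.3% of all genes, and under GDC0068 it called 3, all lower, against 3.58%. The median log2 fold change was -0.03 under Degrader and -0.04 under GDC0068. Among the pocket proteins that hold E2F in check, RBL2 (p130) rose from 55.0 ± 0.99 to 69.4 ± 0.87 CPM under Degrader, by 0.34 (SE 0.052, edgeR adjusted p = 0.00188), and RB1 rose by 0.19 (edgeR adjusted p = 0.0300), whereas RBL1 changed by -0.08 (edgeR adjusted p = 0.374). The E2F genes called under Degrader were all lower: the activators E2F2 (-0.29, edgeR adjusted p = 0.0348) and E2F3 (-0.32, edgeR adjusted p = 0.0152), and E2F4 (-0.23, edgeR adjusted p = 0.0445) and E2F5 (-0.37, edgeR adjusted p = 0.00982), which act mainly in repression. The genes of their dimer partners went opposite ways, TFDP1 falling from 137 ± 6.3 to 113 ± 1.4 CPM (-0.28, edgeR adjusted p = 0.00363) and TFDP2 rising from 126 ± 2.9 to 155 ± 2.7 CPM (0.30, edgeR adjusted p = 0.00245). CDC25A, the phosphatase that activates CDK2, fell from 46.8 ± 0.13 CPM to 35.2 ± 1.1 under GDC0068 (-0.41, edgeR adjusted p = 0.00908) and to 36.2 ± 1.6 CPM under Degrader (-0.37, edgeR adjusted p = 0.00308). E2F3 (-0.43, edgeR adjusted p = 0.0138) and TFDP1 (-0.24, edgeR adjusted p = 0.0269) completed the GDC0068 calls, and MNAT1 the Degrader calls (0.16, edgeR adjusted p = 0.0439). CDK2, the INK4 genes CDKN2A to CDKN2D, CDKN1C, SKP2, FBXW7 and CCNA2 were not called under either drug. Fewer of these genes were called when a library of the compared arms was left out, where fewer libraries enter the fit. Over 13 alternatives, those fits included, the median ran from -0.095 to 0.041 under Degrader and from -0.068 to 0.0041 under GDC0068. With the block 4 were called higher and 8 lower under Degrader (15.1% and 15.7% of all genes). Under GDC0068 the block called 1 higher and 7 lower (8.87% and 8.91%). Between the drugs edgeR called 0 of 26 (also 0 by DESeq2, 5 with an unadjusted p under 0.05), against 0.266% of all genes. With the block it called 6 higher and 0 lower, against 5.03% and 5.35% of all genes. CCND2 was not tested, as no interval carried its name.

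In the network of MYC and MAX partners, the genes called higher under Degrader encode MAX-binding antagonists of MYC. Of 16 tested, 3 rose and 3 fell under Degrader, against 7.39% of all genes called higher and 7.88% lower, and 1 rose under GDC0068, against 1.70% called higher. MXD1 rose from 30.4 ± 0.41 to 39.2 ± 1.9 CPM (0.37, edgeR adjusted p = 0.00676), MXI1 from 9.82 ± 0.82 to 13.3 ± 0.84 CPM (0.44, edgeR adjusted p = 0.0193) and MXD4 from 88.1 ± 0.92 to 109 ± 1.8 CPM (0.31, edgeR adjusted p = 0.00384). MXD4 was also the GDC0068 call (0.24, edgeR adjusted p = 0.0406). Those that fell under Degrader belong to the parallel MLX branch, which senses glucose: MLX (-0.22, edgeR adjusted p = 0.0172), MLXIP (-0.21, edgeR adjusted p = 0.0128) and MLXIPL (-0.25, edgeR adjusted p = 0.00426). MAX itself changed by 0.04 under Degrader (edgeR adjusted p = 0.647), and MNT by -0.01 (edgeR adjusted p = 0.954). The median over the 16 genes was 0.02 under Degrader and -0.07 under GDC0068. Fewer were called under Degrader without DMSO replicate 1 or Degrader replicate 2. The GDC0068 call was lost when any single library was left out, and fewer libraries enter these fits. Over 13 alternatives, those fits included, the median ran from -0.039 to 0.064 under Degrader and from -0.089 to -0.044 under GDC0068. With the block 5 were called higher and 3 lower under Degrader (15.1% and 15.7% of all genes). Under GDC0068 the block called 2 higher and 3 lower (8.87% and 8.91%). MYCN was not tested, as no interval carried its name.

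Genes known as MYC targets were called in the lower direction under both drugs. The list was chosen with earlier results of these data known, so its counts beside those of all genes are a description only. Of 19 tested, edgeR called 16 lower under Degrader, against 7.88% of all genes called lower, and 6 lower under GDC0068, against 1.88%. None was called higher (edgeR; 0 with an unadjusted p under 0.05, and 0 by DESeq2, in either contrast). The median log2 fold change was -0.33 under Degrader, with all 19 below 0 in each replicate (medians -0.29 and -0.41), and -0.24 under GDC0068, against -0.0014 and 0.01 over all genes. Lactate dehydrogenase A (LDHA) fell from 93.8 ± 1.4 CPM to 66.0 ± 0.18 under GDC0068 (-0.51, SE 0.054, edgeR adjusted p = 0.00169) and to 62.7 ± 3.1 CPM under Degrader (-0.58, SE 0.054, edgeR adjusted p = 1.32e-04). Among nucleolar factors of ribosome production, BOP1 fell by 0.66 on the log2 scale (edgeR adjusted p = 0.00125), DDX21 by 0.53 (edgeR adjusted p = 8.27e-04) and NOP56 by 0.44 (edgeR adjusted p = 5.38e-04) under Degrader. ODC1, FBL and PPAT were the genes not called under Degrader, with changes of -0.33, -0.27 and -0.19. Between the drugs 0 of 19 were called (edgeR; also 0 by DESeq2, 4 with an unadjusted p under 0.05), with a median of -0.11. With the replicate block edgeR called 6 of 19 lower and 0 higher between the drugs, against 5.35% of all genes called lower. Fewer of these genes were called when a library of the compared arms was left out, where fewer libraries enter the fit. Over 13 alternatives, those fits included, the median stayed between -0.41 and -0.31 under Degrader and between -0.27 and -0.22 under GDC0068. With the block 19 were called lower under Degrader and 14 under GDC0068, against 15.7% and 8.91% of all genes. TERT was not tested, as no interval carried its name.

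Targets of E2F that act at S entry were likewise called lower under both drugs. This list too was chosen with earlier results known, so its counts are a description only. Of 20 tested, 11 fell under Degrader (7.88% of all genes) and 10 under GDC0068 (1.88%), and none was called higher (edgeR; 0 with an unadjusted p under 0.05, and 0 by DESeq2, in either contrast). The median log2 fold change was -0.23 under Degrader and -0.26 under GDC0068, and all 20 ratios were below 0 in each replicate of each drug. Of the helicase subunits, MCM5 fell from 41.2 ± 2.3 CPM to 28.6 ± 1.4 under GDC0068 (-0.53, SE 0.072, edgeR adjusted p = 0.00629) and to 30.8 ± 0.027 CPM under Degrader (-0.42, SE 0.072, edgeR adjusted p = 0.00316), and MCM2, MCM3 and MCM10 also fell under both drugs. The licensing factor CDT1 fell by 0.38 under GDC0068 (edgeR adjusted p = 0.00702) and by 0.42 under Degrader (edgeR adjusted p = 6.67e-04). PCNA (-0.24 under Degrader), CDC6 (-0.11) and RRM2 (-0.07) were not called. Between the drugs 0 of 20 were called (edgeR; also 0 by DESeq2, 2 with an unadjusted p under 0.05), and the median was 0.07, opposite in sign to that of the MYC targets. With the replicate block edgeR called 4 of 20 higher and 0 lower between the drugs, against 5.03% of all genes called higher. Fewer of these genes were called when a library of the compared arms was left out, where fewer libraries enter the fit. Over 13 alternatives, those fits included, the median stayed between -0.27 and -0.20 under Degrader and between -0.31 and -0.26 under GDC0068. Against DMSO the block called 14 lower under Degrader and 17 under GDC0068, beside 15.7% and 8.91% of all genes.

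The p53 targets, listed because CDKN1A is one, were called in both directions. Of 20 tested, 3 rose and 3 fell under Degrader, against 15.3% of all genes called, and 1 rose and 1 fell under GDC0068, against 3.58%. With the replicate block edgeR called 6 higher and 3 lower under Degrader (15.1% and 15.7% of all genes) and 6 higher and 1 lower under GDC0068 (8.87% and 8.91%), so under GDC0068 the balance of directions depended on the block. The median log2 fold change was 0.07 under Degrader and 0.06 under GDC0068, against -0.0014 and 0.01 over all genes. BTG2, an antiproliferative gene, rose under Degrader (0.34, edgeR adjusted p = 0.0212) and GDC0068 (0.38, edgeR adjusted p = 0.0375), and BBC3, the gene of the apoptosis inducer PUMA, rose under Degrader (0.42, edgeR adjusted p = 0.0135), as did DDB2 (0.16, edgeR adjusted p = 0.0396). AEN fell from 28.8 ± 3.8 CPM to 19.2 ± 3.1 under GDC0068 (-0.59, edgeR adjusted p = 0.0438) and to 14.5 ± 2.7 CPM under Degrader (-0.99, edgeR adjusted p = 0.00130), TIGAR fell by 0.60 (edgeR adjusted p = 0.00344) and GADD45A by 0.35 (edgeR adjusted p = 0.0357) under Degrader. MDM2 changed by 0.16 under Degrader (edgeR adjusted p = 0.107). With a DMSO or Degrader library left out, the median under Degrader ranged from -0.0015 to 0.072. The Degrader count was then lower, and the calls left were mostly falls. Under GDC0068 calls were lost without a DMSO library, GDC0068 replicate 2 or a Degrader library. Fewer libraries enter all these fits. The GDC0068 median stayed between 0.0099 and 0.055 over 13 alternatives. With robust estimation, which kept all 6 libraries, the GDC0068 calls were 2 higher and 0 lower, so the AEN call was lost there. With the 4 libraries compared they were 0 higher and 1 lower, so that of BTG2 was lost.

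**Figure D4:**
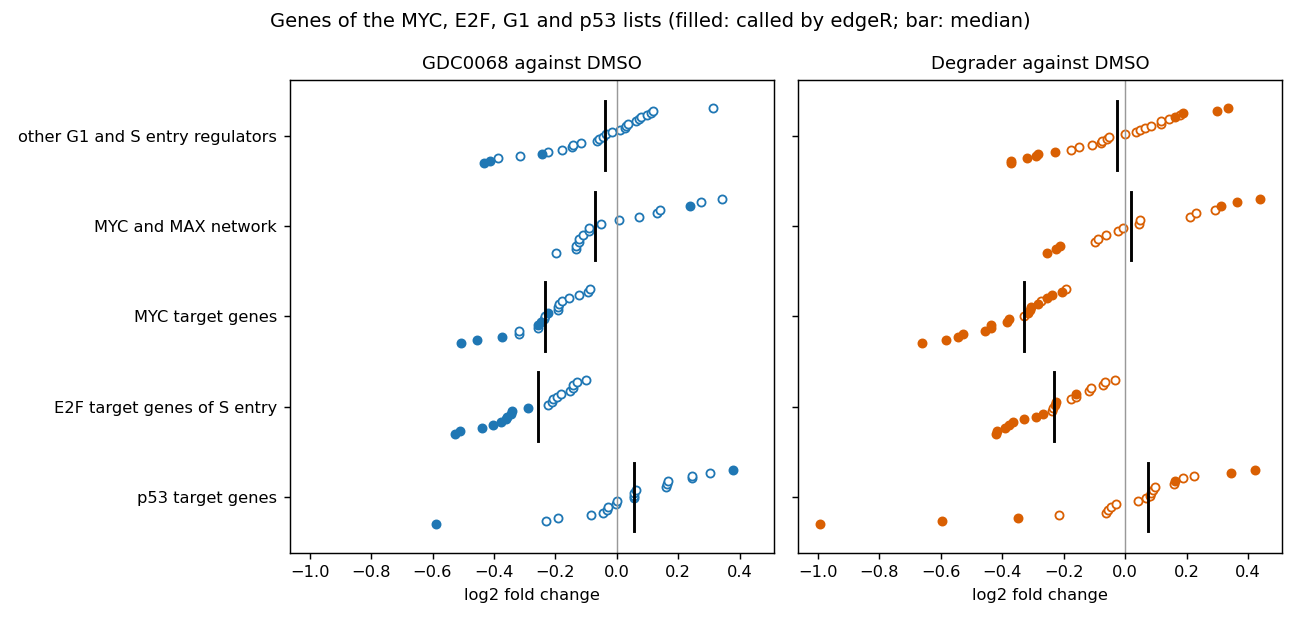
Log2 fold change (x axis) of each tested gene of the 5 lists, 1 point per gene, under GDC0068 (left) and Degrader (right) against DMSO; filled points are called by edgeR and bars mark list medians. All MYC target and E2F target points lie left of 0, with medians of -0.33 and -0.23 under Degrader, while the other 3 lists spread to both sides.

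For MYC, CCND1 and E2F1, the genes with the most similar profile over the 6 libraries were taken from 13896 others with at least 10 CPM, by the Euclidean distance of centred log2 CPM. With 6 points and this many genes, close matches are found for many profiles, and the distances are a description only. IGFBP4, a binding protein of insulin-like growth factors, lay nearest to MYC (0.15), with 189 and 132 CPM in DMSO, followed by AF274853.1 (0.16) and BMP4 (0.17). CCND1 was nearest to AC087289.2 (0.067), THBS1 (0.081) and GTF2IRD1P1 (0.091); THBS1 had 171 and 134 CPM in DMSO, 158 and 137 CPM with GDC0068 and 156 and 128 CPM with Degrader. The profile of E2F1 was matched by SLC7A1 (0.052), a cationic amino acid transporter with 74.7 and 71.1 CPM in DMSO, 59.1 and 58.0 under GDC0068, and 53.9 and 54.2 under Degrader, and by TMEM201 (0.063) and NOLC1 (0.067), a nucleolar protein. The matches of MYC and CCND1 share the higher replicate 1 in DMSO, and those of E2F1 the lower level in all 4 drug libraries.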

How the data were processed

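PRO-seq libraries of T47D cells were deposited as 1 table of raw counts per gene interval, which the authors made with steps only partly recorded. Per the submitters' processing notes, cutadapt 1.14, Bowtie 1.2.2, SAMtools 1.3.1, HISAT2 2.2.1 and limma were used and the builds dm3, hg38 and GRCh38 appear, with no roles; the counting tool, use of strand and removal of duplicates are not given in the sources used here. Groups come from the labels. Counts were tested in R 4.3.3 with edgeR 4.0.16 (filterByExpr with a minimum count of 10, TMM, glmQLFit and glmQLFTest, 6 libraries, 3 residual degrees of freedom, a term per arm). CPM uses TMM-scaled library sizes, the standard error is the log2 fold change divided by the square root of F, and the fit was tested on simulated data. DESeq2 1.42.0, other scalings, no filter, robust estimation, fits to the 4 libraries compared, a replicate block and each library left out were alternatives. Members and lists were chosen with earlier results of these data known, so their counts beside the share of all genes are no independent test. Named genes are all members, list genes called in a contrast, the nearest profiles and overlapping intervals; other list genes were named after their values were seen. Deviations from arm means correlated between same-numbered libraries, at 0.18, 0.22 and 0.20 for the 3 pairs of arms. Among genes with at least 10 CPM the values were 0.42, 0.49 and 0.42. The series describes 2 independent experiments, so the numbers were taken to pair the libraries. The main fit has no term for this pairing, and only the replicate block takes it into account. With 2 libraries per arm an exact permutation test cannot go below 0.333. The edgeR p-values rest on a spread between libraries that the fit moderates toward that of other genes. They are therefore not set by each gene's own 2 libraries per arm alone, and they reach no further than these 2 experiments.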

Additional observations from a re-analysis of the deposited data

How the results depend on the processing

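The log2 fold changes of the 10 genes kept their sign under every alternative scaling, filter, tool and model run with all libraries; the sign changes came from leaving out 1 library. Without a single library the range was -0.076 to 0.49 for MYC under GDC0068 and -0.089 to 0.47 under Degrader, -0.17 to 0.13 and -0.28 to 0.035 for CCND1, -0.20 to 0.12 for CDKN1A under GDC0068, and -0.28 to 0.018 for CCNE2 under Degrader. Between the drugs it was -0.095 to 0.067 for MYC, -0.25 to 0.053 for CCND1, -0.094 to 0.11 for CCND3, -0.15 to 0.15 for CCNE2, -0.12 to 0.070 for CDK4 and -0.26 to 0.066 for CDKN1A. The replicate block moved the members called from 1 to 4 under GDC0068, from 3 to 7 under Degrader and from 0 to 2 between the drugs, and all genes called from 712 to 3540, from 3039 to 6114 and from 53 to 2065; it changed no other call of a member. Between the drugs all genes called were also 136 with DESeq2, 23 with the 4 libraries compared and 116 with robust estimation. With a library left out, members called were 0 to 1 under GDC0068, 2 to 3 under Degrader and 0 between the drugs, and all genes called were 37 to 546, 931 to 3217 and 5 to 63; fewer libraries enter these fits. CCNE1, at 276 to 465 counts, has the largest counting error of the members.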
